A study of Homo sapiens with 8 samples.

Results

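The genes described here are 43 human genes that cells switch on when interferon reaches them, read in A2058 cells with and without TGFβ1. They were taken by symbol from a list of interferon-stimulated genes that was chosen with earlier results of these data known. Every probe annotated to a listed symbol was used, and the probes of a gene were averaged. For 42 of the 43 genes the array annotation named at least 1 probe, 64 probes in all, out of 20045 genes and 47315 probes on the array. STAT2 had no named probe and was not analysed here. A2058 is an established human melanoma cell line. All wells of the study were transfected with an empty expression plasmid using Lipofectamine2000, and then received TGFβ1 or its vehicle, with 4 wells in each group. The exposure lasted 24 h in serum-free medium at 5 or 10 ng/ml, and the sources used here do not say which of these doses the arrays used. No untransfected well was included, so the level of these genes before transfection is unknown and the values show only how the transfected wells differed from each other. The wells were plated on one day from one passage, and each p-value here speaks for differences between wells of 1 culture only. RNA of each well was read on an Illumina HT-12 array. The array data had been set up as the control part of a larger plasmid experiment.

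Interferons are secreted proteins, most of which cells release when they sense foreign nucleic acid. Binding to their receptors activates JAK kinases, which phosphorylate STAT proteins. With IRF9, STAT proteins form the complex ISGF3, which binds the interferon-stimulated response element (ISRE) in promoters. Interferon gamma acts mainly through STAT dimers that bind the gamma-activated site (GAS). The induced proteins block steps of virus replication, degrade or tag foreign RNA and protein, or feed back on the pathway itself. In melanoma, this pathway is known for its links to immune recognition, and interferon has been used in treatment.

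Promoters of interferon-stimulated genes often carry the sequences through which interferon acts, and a few are printed here to show what the genes share outside the array data. RefSeq start sites on GRCh38.p14 gave promoter windows, from 250 bases before to 50 bases after a start, for 34 of the 42 measured genes. The ISRE core was searched as GAAA, any 2 bases and GAAA again, and the GAS core as TTCNNNGAA, each on both strands. An ISRE core lay in a window of 24 of the 34 genes (70.6%), against 4.38% of 27305 genes with such windows, and 13 genes had several in 1 window. A GAS core lay in a window of 12 of the 34 (35.3%), against 9.38% of all genes. In 5 genes (BST2, EPSTI1, IFI27, IFITM1 and MX1) the 2 motifs overlapped. The first set below is from genes that were lower under TGFβ1, with the ISRE cores in capitals (on the other strand the core reads TTTC, any 2 bases and TTTC).
IFIT1 (chr10:89392487-89392549, plus strand): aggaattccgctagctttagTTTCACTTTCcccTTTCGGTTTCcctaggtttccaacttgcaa
IFIT3 (chr10:89327821-89327904, plus strand): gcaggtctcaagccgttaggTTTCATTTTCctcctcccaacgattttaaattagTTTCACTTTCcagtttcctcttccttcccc
IFITM1 (chr11:313980-314029, plus strand): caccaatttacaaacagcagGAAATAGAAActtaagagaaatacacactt
IFITM3 (chr11:320866-320932, minus strand): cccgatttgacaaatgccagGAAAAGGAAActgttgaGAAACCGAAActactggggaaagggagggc
IFI27 (chr14:94110608-94110670, plus strand): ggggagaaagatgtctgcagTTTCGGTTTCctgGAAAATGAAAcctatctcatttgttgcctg
HERC5 (chr4:88456974-88457074, plus strand): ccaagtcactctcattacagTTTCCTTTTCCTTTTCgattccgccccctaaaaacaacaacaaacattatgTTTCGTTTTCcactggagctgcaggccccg
PARP9 (chr3:122564312-122564361, minus strand): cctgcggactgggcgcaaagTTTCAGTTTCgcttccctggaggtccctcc
The single core of PARP9 is also that of DTX3L, because the 2 genes are read in opposite directions from one stretch. It begins 41 bases before the PARP9 start and 6 bases before the DTX3L start. The second set is from genes that did not pass the test, again with ISRE cores in capitals.
ISG15 (chr1:1013364-1013419, plus strand): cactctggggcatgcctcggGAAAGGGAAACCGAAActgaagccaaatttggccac
RSAD2 (chr2:6877612-6877661, plus strand): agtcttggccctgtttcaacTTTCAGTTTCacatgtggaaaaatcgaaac
BST2 (chr19:17405725-17405780, minus strand): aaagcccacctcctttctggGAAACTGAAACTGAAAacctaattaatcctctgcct
In the promoter of IRF1, which also did not pass, the capitals mark a GAS core.
IRF1 (chr5:132490869-132490917, minus strand): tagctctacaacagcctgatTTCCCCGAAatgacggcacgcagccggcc
The ISRE core was about as frequent in genes that fell as in genes that were not called. It was found in 13 of 18 genes with a window that fell (72.2%) and in 11 of 16 that were not called (68.8%). For the GAS core the counts were 7 of 18 (38.9%) and 5 of 16 (31.2%). A match is a description of letters in a window and was not tested as a site of binding.

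The listed genes fell far more often than they rose under TGFβ1. With a limma adjusted p under 0.05 over all genes, 23 of the 42 fell, 1 rose and 18 were not called, whereas 2.67% of all genes fell and 3.03% rose. Because the list was chosen with earlier results of these data known, its counts describe the list and not interferon-stimulated genes as a class. Of further induced genes outside the list, given below, 5 of 42 fell. Each of the 10 groups by role below held at least 1 gene that fell. Averaged over the probes of a gene, the 5 largest falls were those of MX1 (log2 change -1.62, SE 0.17), IFI27 (-0.92, SE 0.17), IFITM2 (-0.85, SE 0.13), PARP9 (-0.84, SE 0.094) and IFIT1 (-0.78, SE 0.083). With the probe of largest SD in place of the average they were those of MX1, IFIT1 (-1.48), OAS2 (-1.05), IFI44L (-0.96) and PARP9 (-0.94). That SD was taken over the wells of both groups and is raised by a change itself, so this choice favours probes with large changes. OASL was the gene that rose, by 0.31 (SE 0.076). The change was below 0 in 37 of the 42 genes and above 0 in 5, against 50.6% of all genes below 0. Over the 42 genes the median log2 change was -0.39, and over all genes it was -0.0013. At an adjusted p under 0.01, 13 fell (1.28% of all genes) and OASL no longer passed (1.8% of all genes rose). By SAM, the test in the methods, 19 of the 64 probes, in 17 genes, were lower and 1 probe of OASL was higher, against 0.797% and 1.29% of all probes. Among the 100 genes with the largest falls on the array, 11 were interferon-stimulated genes of this list. The 4 TGFβ1 wells all lay below the 4 vehicle wells in 23 genes (5.07% of all genes) and above them in OASL and CMPK2 (5.2% of all genes). In RNA of whole wells, fewer cells expressing a gene and less RNA per cell cannot be told apart.

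**Figure D1:**
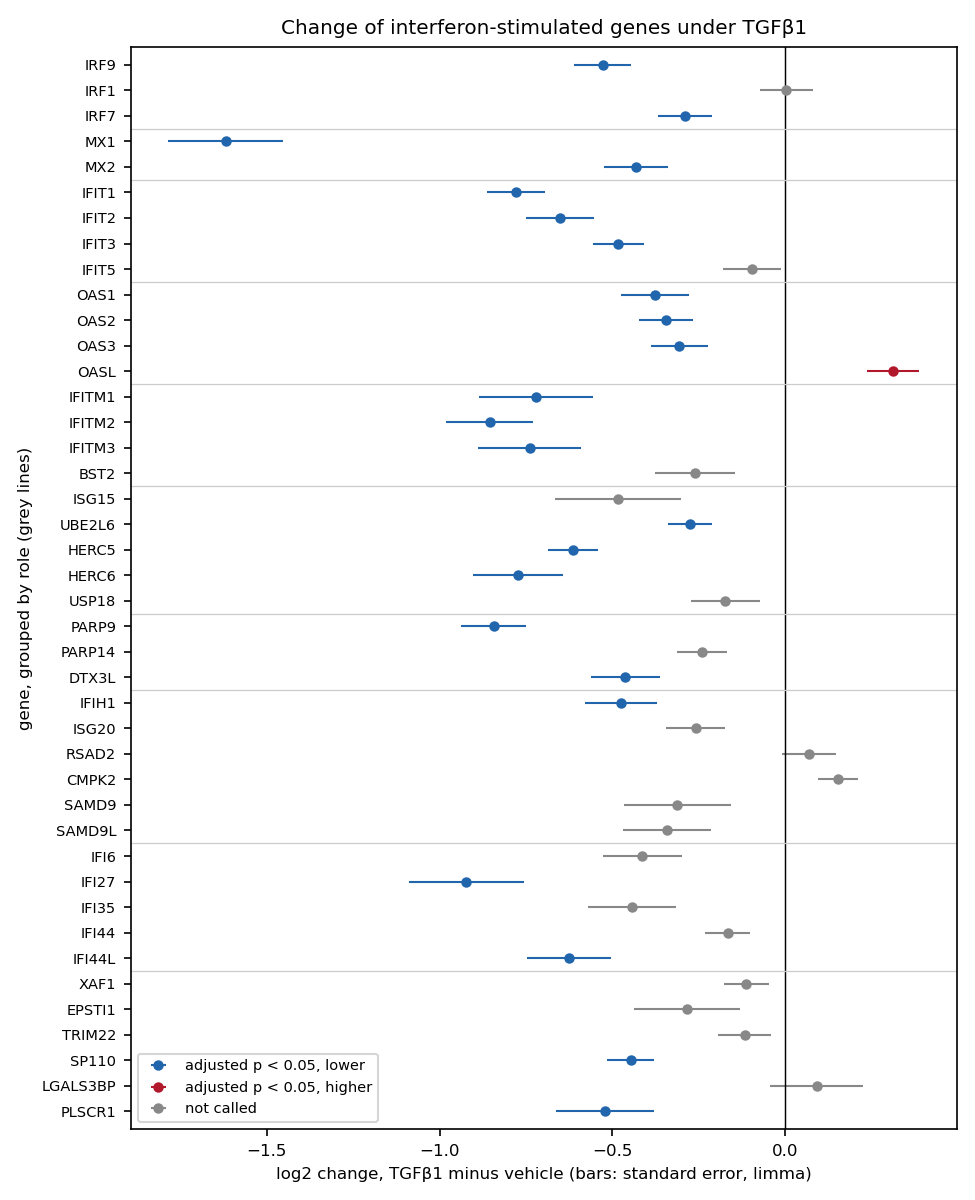
Log2 change, TGFβ1 minus vehicle, of the 42 measured interferon-stimulated genes (points) with the limma standard error (bars), grouped by role between grey lines. Blue genes (23) fell and the red gene (OASL) rose at an adjusted p under 0.05, and grey genes (18) were not called; MX1 lies farthest to the left at -1.62.

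The values were log2 values centred on each gene's own mean over the 8 wells, so 0 is the mean of that gene and levels of different genes cannot be compared. In what follows, wells are given in the order of their replicate numbers, 1 to 4. These numbers name wells and carry no order.

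Of the transcription factors of the pathway, IRF9 and IRF7 fell and IRF1 did not pass the test. IRF9, the subunit through which ISGF3 recognises the ISRE, stood at 0.31, 0.16, 0.36 and 0.23 in the vehicle wells and -0.36, -0.17, -0.083 and -0.44 in the TGFβ1 wells. All TGFβ1 wells were lower than all vehicle wells, with a log2 change of -0.53 (SE 0.083, adjusted p = 0.0013). IRF7, which drives the interferon genes themselves, stood at -0.0078, 0.028, 0.34 and 0.21 in the vehicle wells and -0.11, -0.15, -0.11 and -0.21 in the TGFβ1 wells. The groups did not overlap, although vehicle replicates 1 and 2 were close to the TGFβ1 wells, and the change was -0.29 (SE 0.078, adjusted p = 0.046). The IRF7 call was kept only when vehicle replicate 1 or 2 was the well left out, and without any of the other 6 wells it was lost (adjusted p up to 0.13). For IRF1, a factor induced through GAS elements by interferon gamma, the change was 0.0040 (SE 0.077, adjusted p = 0.992), smaller than its standard error.

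Both MX genes, which encode dynamin-like GTPases that trap incoming viruses, fell. MX1 had the largest fall of any gene on the array, with probes averaged, and stood at 0.48, 0.52, 1.25 and 0.998 in the vehicle wells and -0.87, -0.95, -0.40 and -1.02 in the TGFβ1 wells, a 3.07-fold difference between the group means. Within each group MX1 also varied widely, as vehicle replicates 3 and 4 were well above replicates 1 and 2, and TGFβ1 replicate 3 was well above the other TGFβ1 wells. The change was -1.62 (SE 0.17, adjusted p = 3.12e-05). MX2, its relative on the same chromosome (21), stood at 0.43, 0.0052, 0.31 and 0.11 in the vehicle wells and -0.22, -0.30, -0.29 and -0.046 in the TGFβ1 wells. Vehicle replicate 2 lay near 0 and just above the highest TGFβ1 well, and the change of MX2 was -0.43 (SE 0.092, adjusted p = 0.0123).

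The IFIT proteins bind viral RNA that lacks the marks of host RNA and block its translation. Of the 4 IFIT genes, all on chromosome 10, 3 fell. IFIT1 stood at 0.19, 0.27, 0.61 and 0.48 in the vehicle wells and -0.38, -0.38, -0.42 and -0.38 in the TGFβ1 wells. The SD of its TGFβ1 wells was 0.021 (n = 4) for the average of its 2 probes, which disagree, and the change was -0.78 (SE 0.083, adjusted p = 4.66e-05). IFIT2 stood at 0.33, 0.19, 0.39 and 0.39 in the vehicle wells and -0.41, -0.30, -0.027 and -0.57 in the TGFβ1 wells, with TGFβ1 replicate 3 well above the rest of its group, and changed by -0.65 (SE 0.099, adjusted p = 0.00101). IFIT3, a partner of IFIT1 and IFIT2, stood at 0.21, 0.094, 0.42 and 0.25 in the vehicle wells and -0.28, -0.30, -0.23 and -0.15 in the TGFβ1 wells and changed by -0.48 (SE 0.073, adjusted p = 9.65e-04). These 3 genes had no overlap between groups. The change of IFIT5 was -0.096 (SE 0.085, adjusted p = 0.707).

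The OAS enzymes sense double-stranded RNA and make the short oligoadenylates that activate a latent ribonuclease. OAS1, OAS2 and OAS3 fell and OASL rose. OAS1 stood at 0.00095, 0.080, 0.52 and 0.15 in the vehicle wells and -0.26, -0.16, -0.096 and -0.24 in the TGFβ1 wells and changed by -0.38 (SE 0.097, adjusted p = 0.0358). OAS2 stood at 0.055, 0.032, 0.38 and 0.22 in the vehicle wells and -0.17, -0.23, -0.19 and -0.093 in the TGFβ1 wells and changed by -0.34 (SE 0.078, adjusted p = 0.0179). OAS3 stood at -0.098, 0.16, 0.33 and 0.23 in the vehicle wells and -0.18, -0.20, -0.10 and -0.13 in the TGFβ1 wells and changed by -0.31 (SE 0.082, adjusted p = 0.0449). In each of these 3 genes at least 1 vehicle well was close to the TGFβ1 wells, yet the groups did not overlap. The calls were sensitive to single wells. OAS3 was kept only without vehicle replicate 1 (adjusted p up to 0.129 in the other fits). OAS1 was lost without vehicle replicate 4 or any 1 TGFβ1 well (up to 0.0994), and OAS2 without vehicle replicate 4 or TGFβ1 replicate 2 (up to 0.0609). OASL, a relative that lacks the enzyme activity and enhances RNA sensing, stood at -0.13, -0.27, -0.034 and -0.19 in the vehicle wells and 0.091, 0.14, 0.054 and 0.34 in the TGFβ1 wells. All 4 TGFβ1 wells were above 0 and all 4 vehicle wells below it, and the change was 0.31 (SE 0.076, adjusted p = 0.0262). The OASL call was lost without vehicle replicate 1, 2 or 4 or TGFβ1 replicate 2 or 4 (adjusted p up to 0.0881).

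**Figure D2:**
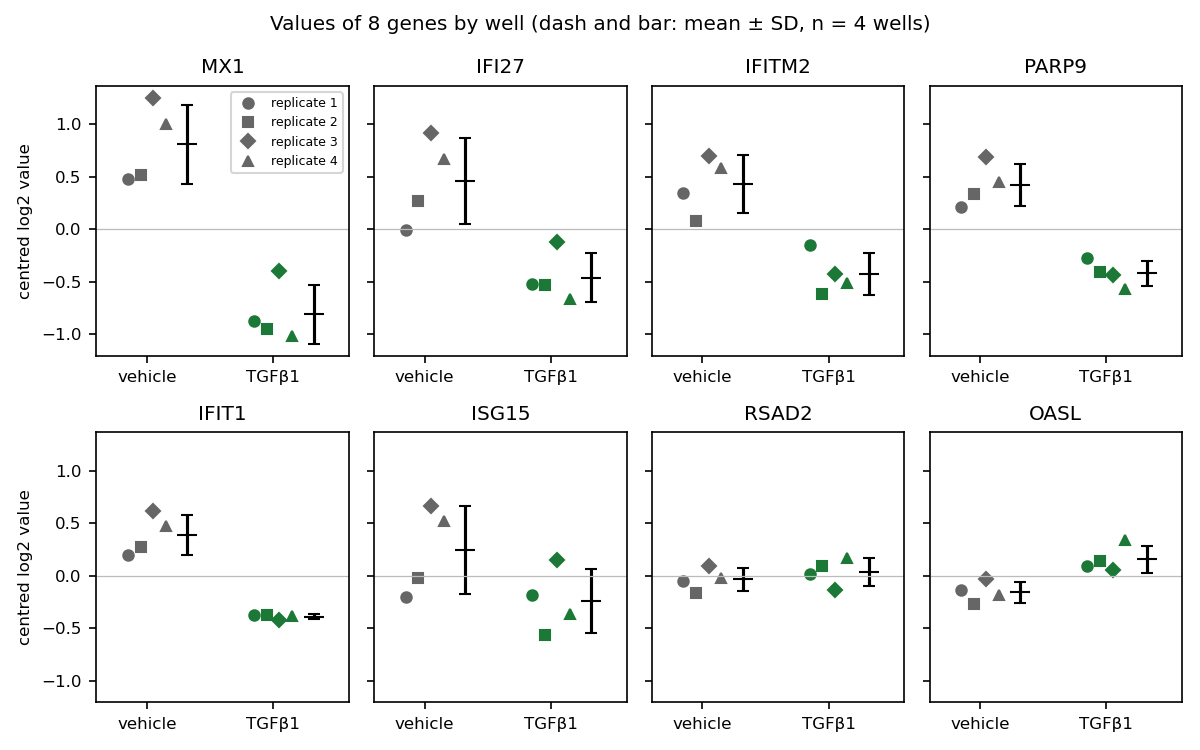
Centred log2 value in each well of 8 of the genes, with vehicle wells in grey, TGFβ1 wells in green, a symbol for each replicate number, and the mean ± SD of the 4 wells beside them. MX1, IFI27, IFITM2, PARP9 and IFIT1 were lower in every TGFβ1 well, OASL was higher in every TGFβ1 well, and ISG15 and RSAD2 overlapped between groups.

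Among membrane proteins that act at virus entry or release, the 3 IFITM genes fell. IFITM proteins stiffen membranes against fusion of viruses. Their genes are close paralogs on chromosome 11, so a probe may have read more than 1 of them and the 3 values are not certain to be separate. IFITM1 stood at 0.13, 0.10, 1.02 and 0.19 in the vehicle wells and -0.38, -0.52, -0.36 and -0.18 in the TGFβ1 wells. Vehicle replicate 3 was far above every other well, and the change was -0.72 (SE 0.17, adjusted p = 0.0186); without vehicle replicate 3 it was -0.50 and still called, whereas without TGFβ1 replicate 1 or 2 the call was lost (adjusted p up to 0.0648). IFITM2 stood at 0.34, 0.082, 0.70 and 0.59 in the vehicle wells and -0.15, -0.62, -0.43 and -0.51 in the TGFβ1 wells and changed by -0.85 (SE 0.13, adjusted p = 8.16e-04). IFITM3 stood at -0.048, 0.26, 0.78 and 0.48 in the vehicle wells and -0.34, -0.61, -0.077 and -0.45 in the TGFβ1 wells and changed by -0.74 (SE 0.15, adjusted p = 0.00877). IFITM3 did not overlap between groups, but its lowest vehicle well and its highest TGFβ1 well were nearly level. BST2 (tetherin), which holds budding virus at the cell surface, overlapped between groups and changed by -0.26 (SE 0.12, adjusted p = 0.287).

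ISG15 is a ubiquitin-like protein that is attached to other proteins by a chain of enzymes. Its conjugating enzyme UBE2L6, its main human ligase HERC5 and the related HERC6 fell, while ISG15 itself and USP18, the protease that removes it and also restrains the interferon receptor, did not pass. HERC5 stood at 0.31, 0.23, 0.46 and 0.23 in the vehicle wells and -0.21, -0.27, -0.30 and -0.45 in the TGFβ1 wells and changed by -0.61 (SE 0.072, adjusted p = 1.09e-04). HERC6 stood at 0.052, 0.37, 0.85 and 0.27 in the vehicle wells and -0.40, -0.50, -0.24 and -0.40 in the TGFβ1 wells and changed by -0.77 (SE 0.13, adjusted p = 0.00246). In both genes the groups were well apart. UBE2L6 stood at 0.11, 0.056, 0.28 and 0.10 in the vehicle wells and -0.14, -0.17, -0.079 and -0.16 in the TGFβ1 wells and changed by -0.27 (SE 0.064, adjusted p = 0.0204), a call that was lost without vehicle replicate 3 or TGFβ1 replicate 1 or 2 (adjusted p up to 0.0636). ISG15 stood at -0.20, -0.020, 0.66 and 0.53 in the vehicle wells and -0.19, -0.56, 0.15 and -0.37 in the TGFβ1 wells. Its vehicle wells were split, with replicates 3 and 4 above every other well and replicates 1 and 2 among the TGFβ1 wells. Its change of -0.48 (SE 0.18, adjusted p = 0.182) had the largest standard error of the 42 genes and did not pass. USP18 changed by -0.17 (SE 0.10, adjusted p = 0.478).

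PARP9 and DTX3L form a complex that joins ADP-ribosylation to ubiquitylation in the interferon response, and both fell. PARP9 stood at 0.21, 0.34, 0.68 and 0.45 in the vehicle wells and -0.28, -0.41, -0.44 and -0.56 in the TGFβ1 wells and changed by -0.84 (SE 0.094, adjusted p = 6.86e-05), with the groups far apart. DTX3L, which shares its promoter with PARP9, stood at 0.11, 0.28, 0.28 and 0.25 in the vehicle wells and -0.32, -0.28, 0.11 and -0.43 in the TGFβ1 wells. TGFβ1 replicate 3 nearly reached the lowest vehicle well, and the change was -0.46 (SE 0.099, adjusted p = 0.0122). PARP14, another ADP-ribosyltransferase on the same chromosome (3), changed by -0.24 (SE 0.073, adjusted p = 0.0813). It passed without vehicle replicate 1 (adjusted p = 0.0282).

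Of 6 genes for a sensor, enzymes and restriction factors that act on nucleic acids, 1 fell. IFIH1 (MDA5), a sensor of long double-stranded RNA, stood at -0.036, 0.29, 0.35 and 0.34 in the vehicle wells and -0.46, -0.31, -0.017 and -0.16 in the TGFβ1 wells. Vehicle replicate 1 lay below TGFβ1 replicate 3, and the change was -0.47 (SE 0.10, adjusted p = 0.0132). ISG20, an exonuclease, changed by -0.26 (SE 0.086, adjusted p = 0.116). RSAD2 (viperin), a radical SAM enzyme, stood at -0.047, -0.17, 0.096 and -0.018 in the vehicle wells and 0.019, 0.090, -0.14 and 0.17 in the TGFβ1 wells, so its groups overlapped, and it changed by 0.070 (SE 0.078, adjusted p = 0.791). CMPK2, a nucleotide kinase whose gene is on chromosome 2 like RSAD2, stood at -0.15, -0.053, -0.023 and -0.077 in the vehicle wells and 0.049, 0.15, 0.064 and 0.041 in the TGFβ1 wells. Its TGFβ1 wells were all higher than its vehicle wells, but the change of 0.15 (SE 0.059, adjusted p = 0.19) did not pass. The paralogs SAMD9 and SAMD9L on chromosome 7, which restrict poxviruses, changed by -0.31 (SE 0.16, adjusted p = 0.372) and by -0.34 (SE 0.13, adjusted p = 0.184). Both passed when vehicle replicate 1, their lowest vehicle well, was left out (adjusted p = 0.0282 and 0.0335). Without vehicle replicate 3 the changes were -0.17 and -0.23 (adjusted p = 0.685 and 0.412).

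Of the 5 genes named IFI, 2 fell. IFI27, a small hydrophobic protein of mitochondria, stood at -0.0051, 0.27, 0.91 and 0.67 in the vehicle wells and -0.53, -0.53, -0.12 and -0.66 in the TGFβ1 wells. Vehicle replicates 3 and 4 were far above replicate 1, and the change was -0.92 (SE 0.17, adjusted p = 0.00401). IFI44L stood at 0.097, 0.046, 0.61 and 0.50 in the vehicle wells and -0.29, -0.35, -0.11 and -0.50 in the TGFβ1 wells and changed by -0.63 (SE 0.12, adjusted p = 0.00658). IFI6, a member of the IFI27 family, stood at -0.055, 0.18, 0.39 and 0.31 in the vehicle wells and -0.18, -0.49, 0.072 and -0.24 in the TGFβ1 wells and was the gene just outside the threshold, at -0.41 (SE 0.11, adjusted p = 0.0517). TGFβ1 replicate 3 was above the lowest vehicle well, and IFI6 passed without TGFβ1 replicate 3 or vehicle replicate 1 (adjusted p = 0.0198 or lower). IFI35 changed by -0.44 (SE 0.13, adjusted p = 0.0649) with no overlap between groups and passed without TGFβ1 replicate 3 (0.0303). IFI44 changed by -0.17 (SE 0.065, adjusted p = 0.201), also without overlap.

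Of the remaining 6 genes, SP110 and PLSCR1 fell. SP110, a protein of nuclear bodies, stood at 0.26, 0.057, 0.35 and 0.23 in the vehicle wells and -0.26, -0.22, -0.17 and -0.25 in the TGFβ1 wells and changed by -0.45 (SE 0.068, adjusted p = 0.00108). The SD of its TGFβ1 wells was 0.039 (n = 4) for the average of its 4 probes, which disagree. Of these probes, those at -0.63 and -0.76 fell and those at -0.28 and -0.12 were not called. PLSCR1, a phospholipid scramblase that restricts viruses, stood at 0.42, 0.15, -0.023 and 0.50 in the vehicle wells and -0.43, -0.61, 0.059 and -0.062 in the TGFβ1 wells. Its groups overlapped in replicate 3 of both, its change was -0.52 (SE 0.14, adjusted p = 0.0487), and it was the gene just inside the threshold. The call was lost without vehicle replicate 1, 2 or 4 or TGFβ1 replicate 1 or 2 (adjusted p up to 0.148). XAF1, an antagonist of an apoptosis inhibitor, changed by -0.11 (SE 0.066, adjusted p = 0.489). EPSTI1 changed by -0.28 (SE 0.15, adjusted p = 0.43) with wide spread in both groups. TRIM22, a ubiquitin ligase, changed by -0.12 (SE 0.078, adjusted p = 0.563). The secreted glycoprotein LGALS3BP changed by 0.092 (SE 0.13, adjusted p = 0.856).

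Probes of 1 gene did not always read the same change. Tested over all probes, 30 of the 64 probes fell and 1 rose (1.53% and 1.8% of all probes). Several probes read 13 of the genes. All probes fell in IFIT3 and PARP9, and some but not all fell in 9 others. IFIT1 was read at -1.48 (SE 0.12) by 1 probe and at -0.079 (SE 0.086) by the other, so its mean of -0.78 describes neither. OAS2 was read at -1.05 by 1 probe and at -0.071, -0.027 and -0.23 by the others. One probe of OAS1 fell by 0.72, while the rest were at -0.13, -0.23 and -0.42 and did not pass. IRF7 was read at -0.55, -0.44 and 0.12. UBE2L6 had 1 probe that fell, at -0.56, and its others were at -0.24 and -0.018 and did not pass. For OASL, 1 probe rose by 0.47 and the other was at 0.15. The 2 genes that were not called but had a probe that fell were IFI6 (-0.47, adjusted p = 0.047) and IFI35 (-0.44, adjusted p = 0.0468). IFI35 has a single probe, so its change was the same in the fit over probes and the fit over genes. Its unadjusted limma p was 0.00151 over probes and 0.00409 over genes. The SE was 0.1199 and 0.128, as limma pools variance over a different set in each fit. Whether the probes of a gene read different transcripts was not tested.

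**Figure D3:**
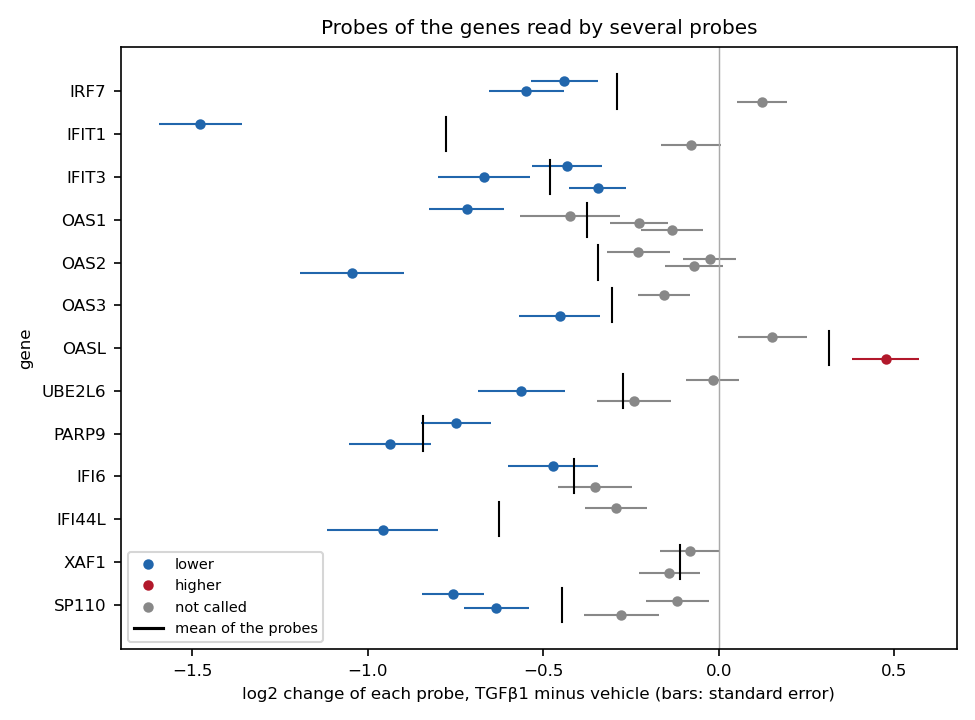
Log2 change, TGFβ1 minus vehicle, of each probe of the 13 genes read by several probes (points; bars are standard errors), with the mean of the probes as a black line. Blue probes fell, the red OASL probe rose and grey probes were not called in limma over all probes; the 2 IFIT1 probes lie at -1.48 and -0.079.

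The interferon-stimulated genes varied more from well to well than most genes, and they varied together. Among the 4 vehicle wells their median SD was 0.187 (range 0.056 to 0.443), against 0.0937 over all genes, and 37 of the 42 lay above that. Among the TGFβ1 wells it was 0.131 (0.0208 to 0.338) against 0.0956, with 30 of 42 above. The comparison is with all annotated genes. The values keep no signal level, so genes near background could not be set aside from it. The vehicle SD was the larger in 31 of the 42 (73.8%), against 48.6% of all genes. The mean over the 42 genes was 0.061, 0.096, 0.412 and 0.246 in vehicle replicates 1 to 4, and -0.216, -0.273, -0.099 and -0.227 in the TGFβ1 wells. Vehicle replicate 3 thus stood farther above vehicle replicate 1 than replicate 1 stood above any TGFβ1 well. It was the highest vehicle well in 38 of the 42 genes (90.5%), against 26.0% of all genes, and the exceptions were IRF1, MX2, IFI44 and PLSCR1. The lowest vehicle well was replicate 1 in 19 genes (45.2%, against 27.8% of all genes) and replicate 2 in 18 (42.9%, against 22%). In the TGFβ1 group, replicate 3 was the highest well in 24 genes (57.1%, against 23.7% of all genes). Replicate 2 was the lowest there in 18 (42.9%, against 22.7%). Genes of the list are not independent of each other, so these counts describe 8 wells. Without vehicle replicate 3, 20 genes fell, 1 rose, and the median change was -0.31. The share of all genes called in that fit was not counted. All wells carried plasmid and transfection reagent, and what set the difference between wells was not tested.

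**Figure D4:**
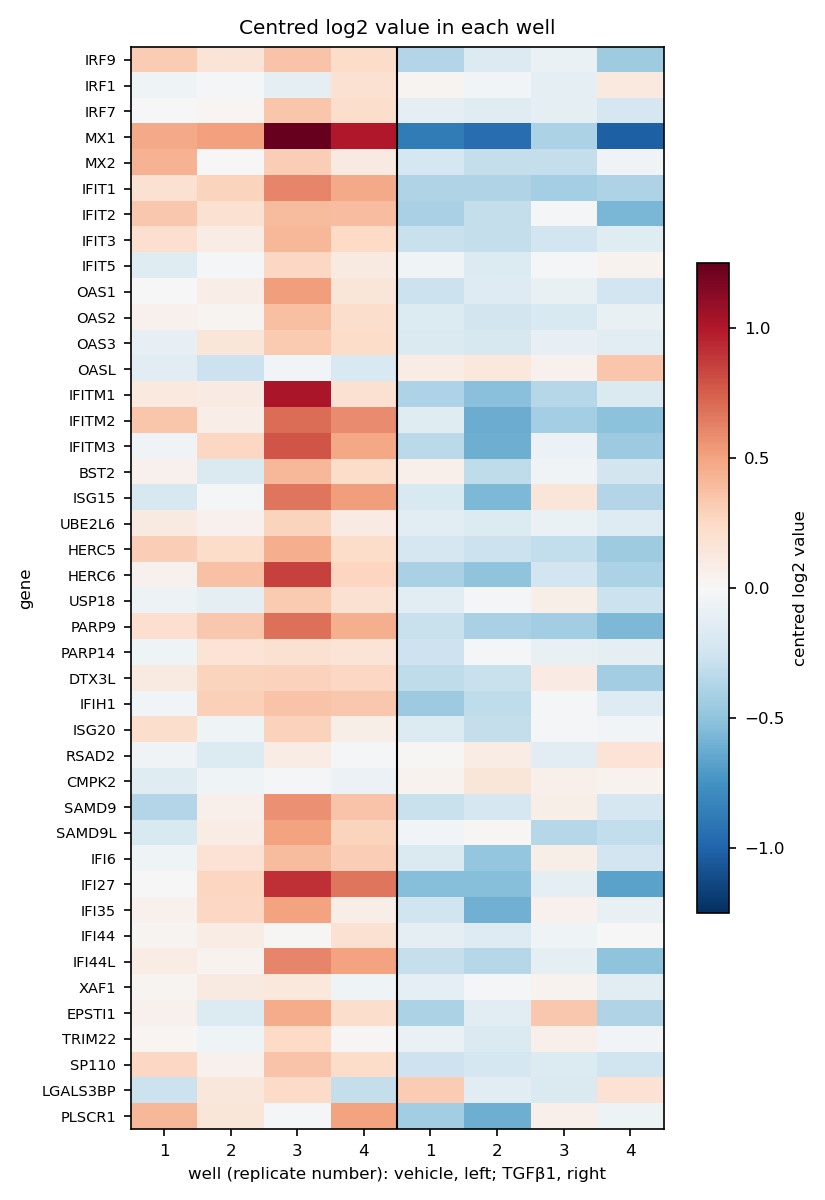
Centred log2 value (colour) of each of the 42 genes (rows, grouped by role) in the 4 vehicle wells (left of the line) and the 4 TGFβ1 wells (right), named by replicate number. Vehicle replicate 3 is the darkest red column, with a mean of 0.412 over the genes, and in OASL and CMPK2 every TGFβ1 well is above every vehicle well.

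**Figure D5:**
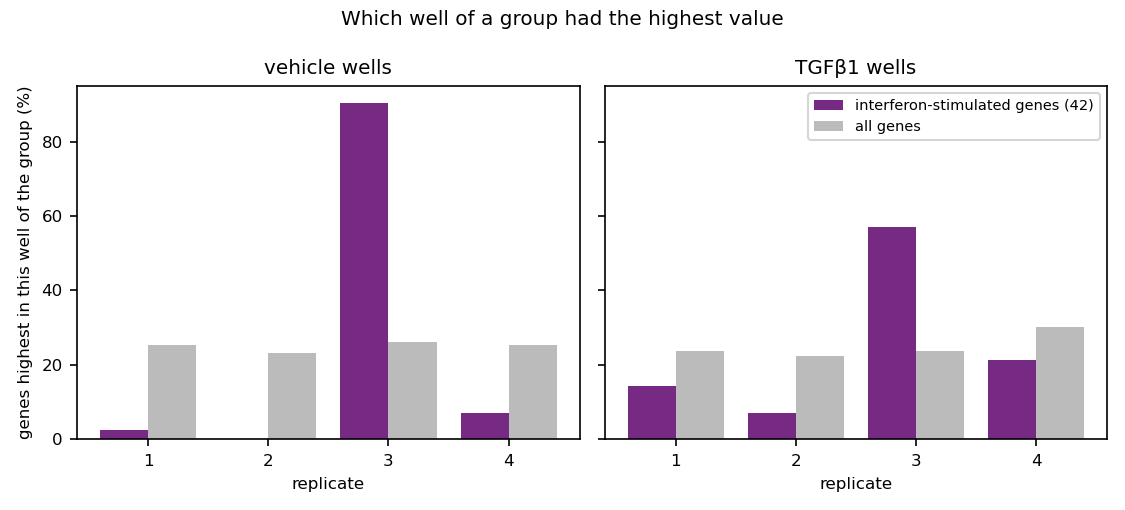
Share of genes (in percent) whose highest value within a group fell in each replicate, for the 42 interferon-stimulated genes (purple) and all genes (grey), in vehicle wells (left) and TGFβ1 wells (right). Vehicle replicate 3 held the highest value for 90.5% of the interferon-stimulated genes and 26.0% of all genes.

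Other parts of the interferon pathway were read from lists of its ligands and of the proteins around them. Of 99 measured genes among ligands, receptors, kinases, sensors, negative regulators and further induced genes, 7 fell, 3 rose and 89 were not called, with a median change of -0.045, where 2.67% of all genes fell and 3.03% rose. The number that rose is thus no more than the share of all genes. None of 21 interferon genes passed in limma, where 0 also had an unadjusted p under 0.05, and SAM called 0. Both chains of the interferon gamma receptor rose. IFNGR1 stood at -0.33, -0.18, -0.19 and -0.11 in the vehicle wells and 0.12, 0.14, 0.27 and 0.27 in the TGFβ1 wells and changed by 0.40 (SE 0.067, adjusted p = 0.002). IFNGR2 stood at -0.12, -0.26, -0.27 and -0.22 in the vehicle wells and 0.27, 0.079, 0.30 and 0.23 in the TGFβ1 wells and changed by 0.44 (SE 0.066, adjusted p = 0.00102). Neither overlapped between groups, and neither had its highest vehicle value in replicate 3. The chains of the type I receptor were not called, with IFNAR1 at -0.15 (SE 0.11, adjusted p = 0.617) and IFNAR2 at 0.051 (SE 0.068, adjusted p = 0.834). The type III chain IFNLR1 (0.036) and its partner IL10RB (-0.19) were not called either, nor were the kinases JAK1 (-0.15), JAK2 (-0.097) and TYK2 (-0.071). Of 16 sensors and adaptors, IFI16, a DNA sensor that is itself induced by interferon, fell. It stood at 0.36, 0.29, 0.35 and 0.50 in the vehicle wells and -0.51, -0.33, -0.41 and -0.25 in the TGFβ1 wells and changed by -0.75 (SE 0.071, adjusted p = 1.44e-05). TRIM25, the ubiquitin ligase of the RNA sensor RIG-I, changed by -0.38 (SE 0.063, adjusted p = 0.00225). Of 11 negative regulators, IRF2BP2, a corepressor, rose by 0.29 (SE 0.075, adjusted p = 0.0359). Of 42 further induced genes, 5 fell. The helicase-like HELZ2 stood at 0.58, 0.029, 0.72 and 0.45 in the vehicle wells and -0.62, -0.51, -0.37 and -0.27 in the TGFβ1 wells and changed by -0.89 (SE 0.12, adjusted p = 5.28e-04). The others were the GTPase GBP2 at -0.59 (SE 0.093, adjusted p = 0.00135), the RNA-activated kinase EIF2AK2 (PKR) at -0.54 (SE 0.10, adjusted p = 0.00473), PARP12 at -0.32 and RNF213 at -0.24. The 5 of 42 that fell compare with 23 of 42 in the list above, and the difference between the lists was not tested.

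Of 11 measured leukocyte markers none passed in limma (0 at an unadjusted p under 0.05, and 0 by SAM), with well means from -0.016 to 0.019 under vehicle and from -0.030 to 0.020 under TGFβ1. Of 8 melanocyte lineage markers, MITF (-0.39), SOX10 (-0.35) and TYRP1 (-0.80) fell and 5 were not called, where 2.67% of all genes fell. At an unadjusted p under 0.05 there were 5 of the 8, a cut at which the share of all genes was not counted. SAM called a probe in 2 of the markers, and over all probes it called 0.797% lower and 1.29% higher. Because the values were centred, whether a marker was present at all could not be read from them.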

How the data were processed

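RNA from 8 wells of A2058 cells, 4 with TGFβ1 and 4 with vehicle, was read on Illumina HT-12 arrays. The authors quantile normalised the signals in BASE, removed control probes, and in MeV log2 transformed the values and centred them by gene and by sample. The deposited log2 values therefore keep no signal level, background or detection call, and precision rests on 4 arrays a group. All probe means lay within 1.57e-07 of 0, array medians were -0.00504 to -0.00147, and array SDs 0.12 to 0.16. GEO's platform annotation gave 1 symbol to 30105 of 47315 probes, several to 8 and none to 17202. Probes of a symbol were averaged (20045 genes), and TGFβ1 was compared with vehicle in limma 3.58.1 (R 4.3.3, lmFit and eBayes, two-sided, Benjamini-Hochberg over all genes). The authors used SAM, which was recoded here as an alternative, aiming at a median of 10 false positives (612 probes higher, 377 lower). Calls needed an adjusted p under 0.05. Every member is named, with well values for up to 3 called genes in each role, genes that rose and those nearest the threshold. Well values of ISG15, RSAD2, CMPK2, HELZ2, IFI16, IFNGR1 and IFNGR2 were added after their values were seen. The members and all gene lists were chosen with earlier results of these data known. Alternatives were scaling, array weights, the replicate block, other choices of probe, an SD filter and leaving out each array. The code was tested on simulated data. Promoter windows came from RefSeq GRCh38.p14, and no genome build is named in the sources used here for the arrays.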

Additional observations from a re-analysis of the deposited data

Results flagged for a closer look

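Within groups of 4 wells, a well far from the other 3 was looked for in 84 groups (42 genes in each treatment), where chance alone would mark about 1 in 20. The gap to the nearest well, divided by the range of the group, was compared with Dixon's critical value for 4 wells and exceeded it in 4 groups. IFITM1 was highest in vehicle replicate 3, at 1.02 (gap 0.907 of the range). PARP14 was lowest in vehicle replicate 1, at -0.0492 (0.909), and so was IFIH1, at -0.0357 (0.843). IFIT1 was lowest in TGFβ1 replicate 3, at -0.42 (0.832), as the average of 2 probes that disagree. The IFIT1 probe that fell had its highest TGFβ1 value in replicate 3 (-0.67), and the probe that was not called its lowest (-0.17).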

How the results depend on the processing

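The count of 23 lower genes was 13 at an adjusted p under 0.01 and 16 to 26 when 1 well was left out, 16 of the 23 being called in all 8 such fits. Each of the other settings tried gave 17 (SAM) to 28 (genes with an SD above the median, a filter that a change itself helps a gene to pass and that alters the variance limma pools, so 28 is less reliable). The share of all genes called was not counted with 1 well left out. It was also not counted with rescaling, array weights, the probe of largest SD, the replicate block or the SD filter. SAM did not call MX2, OAS3, UBE2L6, DTX3L, IFIH1 and PLSCR1. The 1 higher gene, OASL, was lost at an adjusted p under 0.01 (0) and with the replicate block (0), and the count was 0 to 1 when 1 well was left out. The median change of -0.39 ranged from -0.45 to -0.31 when 1 well was left out. Of 42 single changes, that of IRF1, which was not called, turned its sign, to -0.010 with array weights and within -0.037 to 0.067 when 1 well was left out. The other 41 kept their direction. Replicate numbers are no shared unit in the labels, and over all genes same-numbered wells did not deviate together (correlations from -0.0399 to 0.0263). These correlations were not taken over the 42 genes alone. Their mean was highest in replicate 3 of both groups (0.412 under vehicle and -0.099 under TGFβ1), and whether same-numbered wells share something was not tested. With the replicate block, 24 genes fell, IRF7, PLSCR1 and OASL were lost, and ISG15, IFI6 and IFI35 were gained (ISG15 at an adjusted p of 0.0476). Whether dim probes hide changes cannot be judged, since the deposited values keep no signal over background.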
